A study of Mus musculus with 6 samples.

Results

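Six2 and 9 further genes of the cap mesenchyme were followed in sorted ureteric bud cells of mouse kidneys with and without Dicer. The 10 genes were Six2, Six4, Eya1, Osr1, Cited1, Sall1, Wt1, Gdnf, Capn6 and Tmem100. They were chosen by name, and each had 1 probe set that the platform annotation assigns to that gene alone, so all 10 were measured among 19296 genes. The labels describe 6 Affymetrix arrays of YFP-positive cells sorted from trypsin-treated E15.5 kidneys, 3 from controls and 3 from Dicer mutants, all of mixed strain background. The mutant genotype reads Dicerc/-; Hoxb7Cre; Rosa26YFP: a conditional and a null Dicer allele, Cre driven by the Hoxb7 promoter, which is active in the ureteric bud, and a YFP reporter of Cre activity. The control genotype reads wild type. The controls were sorted on YFP too, and the labels do not say which transgene gave that signal. Each value is a log2 signal after RMA, where 1 unit is a doubling. Whether an array held RNA of 1 embryo or of several is not stated, so p-values here reflect only how these samples spread.

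The cap mesenchyme is a sheet of progenitor cells around each tip of the ureteric bud, and it gives rise to the nephrons. Six2 keeps these cells undifferentiated, Six2 and its relatives bind Eya proteins and act with them on target genes, and the cap secretes GDNF, which the bud receives through Ret and Gfra1 and answers by branching. Wnt9b from the bud in turn acts on the cap. In a normal kidney the bud epithelium itself is not the site of Six2 expression.

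The labelled cell type was checked first. Of 13 ureteric bud markers, 13 lay above the array-wide median, 7.51 over all probe sets and arrays, in each group, among them Hoxb7 at 10.98 ± 0.01 in control cells and 10.58 ± 0.08 in mutant cells (SD, n = 3 each; limma, adjusted p = 0.00211). In limma 2 of the 13 were higher and 7 lower in the mutant. Over all genes 25.8% were called, and 39.6% of those with a mean above that median. Dicer1 (probe set 10402444) had log2 values of 10.31, 10.38 and 10.25 in controls and 9.80, 9.72 and 9.64 in mutants. Its groups did not overlap, and limma gave it a log2 fold change of -0.59 (standard error 0.06, adjusted p = 0.0005). By exact permutation, two-sided, p was 0.1, the smallest that 3 against 3 arrays allow. The array medians were 7.536, 7.510 and 7.527 in controls and 7.487, 7.510 and 7.475 in mutants. Every mutant median was below every control median, though replicate 2 of each group differed only at the fourth decimal. The sort is a bulk sample, so fewer cells of a type and less RNA per cell cannot be told apart in any of these values.

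Six2 was the member that changed most, and the others changed less and in both directions. In limma with Benjamini-Hochberg adjustment over all genes, 3 of the 10 members rose (Six2, Tmem100 and Sall1), 2 fell (Capn6 and Osr1) and 5 did not pass the threshold of 0.05. Over all genes, 25.8% passed, 11.8% higher and 13.9% lower, and with each array centred on its median the balance turned, from 2285 higher and 2690 lower to 2696 higher and 2241 lower. The 3 mutant arrays lay wholly above the 3 control arrays for 4 members and wholly below them for 3. Over all genes the arrays of the groups did not overlap for 42.5%, with 18.3% higher and 24.1% lower. The median log2 fold change of the 10 members was -0.06, beside -0.05 over all genes.

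**Figure D1:**
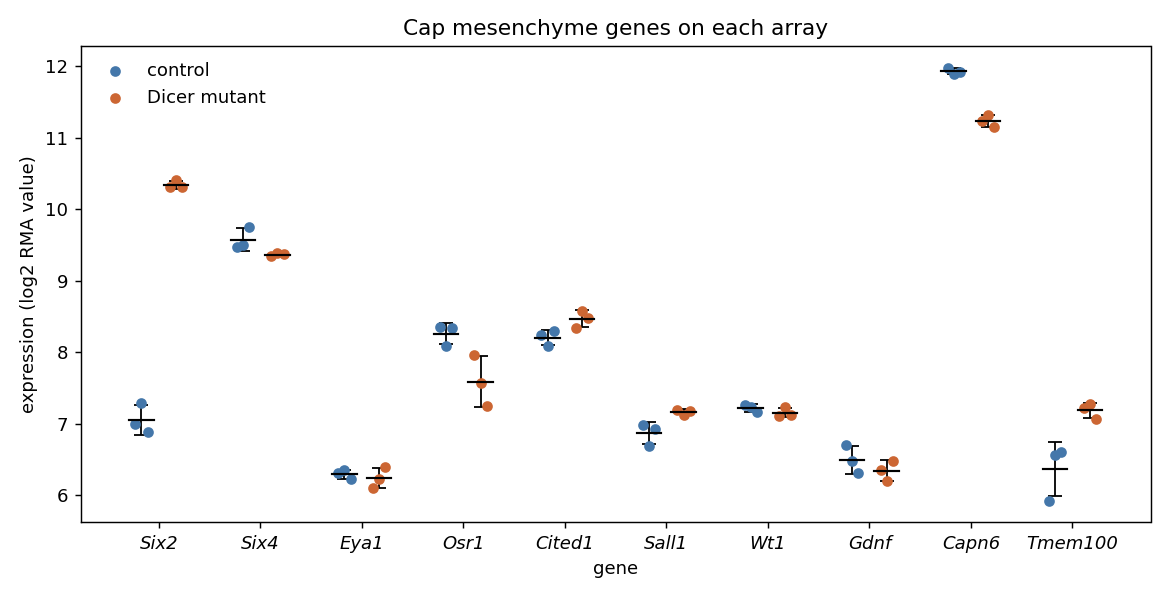
Log2 RMA values of the 10 cap mesenchyme genes (x axis) on each array, with control arrays in blue and Dicer mutant arrays in orange; bars show the mean and SD of 3 arrays. Six2 moves from 7.05 to 10.34, while the means of the other genes shift by at most 0.82 log2 units.

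Six2, the homeodomain factor of nephron progenitors (probe set 10453394), had log2 values of 6.99, 7.29 and 6.88 on the control arrays and 10.31, 10.41 and 10.31 on the mutant arrays. All 3 mutant arrays were high and close together, with an SD of 0.06 against 0.21 between controls. In controls the mean of 7.05 was under the array-wide median, and no detection call is available to say whether it was above the scanner's background. The log2 fold change was 3.29 with a 95% interval of 3.06 to 3.52 (limma, adjusted p = 3.29e-06), a 9.78-fold rise that ranked 4 among 19296 genes. RMA compresses the change of a gene that starts dim. Across 13 alternative fits the log2 fold change lay between 3.20 and 3.41 and the adjusted p was at most 0.000128. The fit with dim genes left out kept genes whose mean in either group was above the array-wide median. Six2 entered that fit only through its mutant mean, so its call there adds no support.

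The rise of Six2 was set against that of each other member by taking the difference between both genes on every array. In all 9 pairs the smallest mutant difference exceeded the largest control difference, by 2.02 log2 units for Tmem100 and by 3.69 for Capn6 at the extremes. All 9 pairs use the same Six2 values, whose groups already lay far apart. A gene that changes little gives such a separation, so the 9 pairs add no support to the rise. Six2 changed by 2.47 more than Tmem100, by 2.99 more than Sall1 and by 3.99 more than Capn6. Each of the 9 exact permutation tests (two-sided) gave p = 0.1, the smallest this design allows, and 0.1 after adjustment over the 9. The lower end of the interval for Six2, 3.06, was above the upper end for Tmem100, 1.21, which was the next highest.

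**Figure D2:**
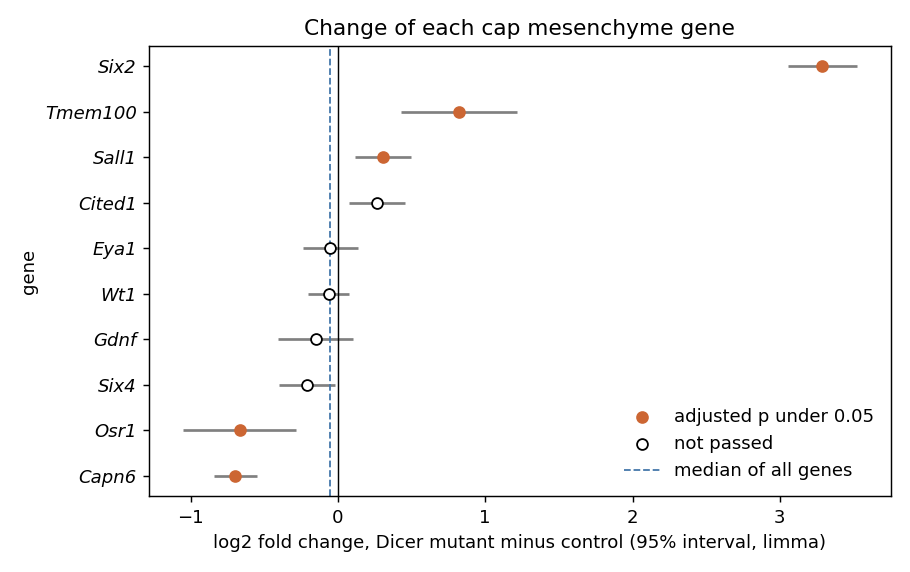
Log2 fold change of each cap mesenchyme gene (Dicer mutant minus control) with its 95% interval from limma; filled points passed an adjusted p of 0.05, open points did not, and the dashed line is the median of all genes, -0.05. Six2 at 3.29 stands apart from the other 9 genes, whose values run from -0.70 to 0.82.

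The genes beside Six2 on chromosome 17 did not pass. RefSeq's gene order (assembly GRCm38.p6) was used to take the 4 nearest measured genes on each side, a choice made after the values of Six2 were known. Six3, the homeodomain paralog next to Six2, had means of 6.38 ± 0.09 and 6.34 ± 0.07 in control and mutant cells (SD, n = 3 each), with a difference of -0.04 (limma, adjusted p = 0.682). The noncoding transcript Six3os1 had a log2 fold change of -0.30 (adjusted p = 0.147). Srbd1, on the other side, had means of 9.24 ± 0.04 and 9.35 ± 0.02 (SD, n = 3 each), and although its arrays did not overlap, the difference of 0.11 did not pass (limma, adjusted p = 0.160). Slc3a1, Prepl, Prkce, Epas1 and Tmem247 had log2 fold changes between -0.11 and 0.06. Of these 8 genes limma called 0, and 0 had an unadjusted p under 0.05. Limma called 25.8% of all genes and 11.9% of those dimmer than the array-wide median, where most of the 8 lay. Few calls could thus be looked for among 8 genes.

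**Figure D3:**
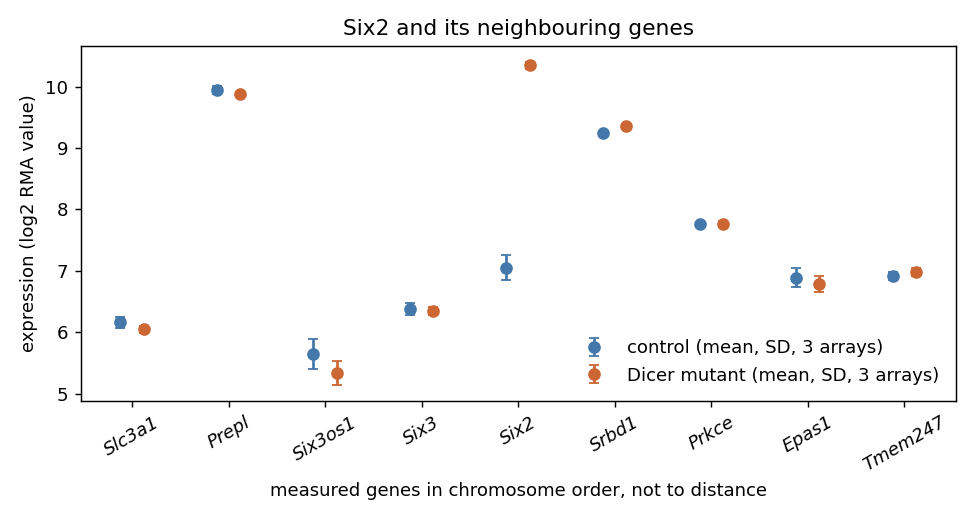
Mean log2 RMA value and SD over 3 arrays for Six2 and the 4 measured genes on either side, in chromosome order and not spaced by distance, with control in blue and Dicer mutant in orange. Six2 is separated by 3.29 log2 units, and the neighbours Six3 and Srbd1 differ by -0.04 and 0.11.

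The promoters of the member that rose most and of the one that fell most are shown so that the sequence at both starts can be compared. RefSeq's promoter table (GRCm38.p6) held 12 windows of 6 of the members, and the 250 bases before the start of Six2 (chr17:85688255-85688504, minus strand) and of Capn6 (chrX:143827413-143827662, minus strand) are printed. Capitals mark the CCAAT box (CCAAT) and the homeodomain core (TAAT), each searched on both strands, with overlapping matches counted separately.
Six2: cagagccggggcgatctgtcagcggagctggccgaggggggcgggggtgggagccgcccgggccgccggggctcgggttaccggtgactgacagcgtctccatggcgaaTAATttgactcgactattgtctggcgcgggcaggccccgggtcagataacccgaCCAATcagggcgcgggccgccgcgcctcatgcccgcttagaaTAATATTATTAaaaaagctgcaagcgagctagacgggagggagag
Capn6: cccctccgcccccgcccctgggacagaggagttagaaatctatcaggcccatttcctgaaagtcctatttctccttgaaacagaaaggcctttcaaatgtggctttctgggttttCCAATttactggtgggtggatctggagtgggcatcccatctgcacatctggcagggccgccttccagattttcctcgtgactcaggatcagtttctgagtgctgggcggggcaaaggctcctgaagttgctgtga
The Six2 window held 1 CCAAT match, 87 bases before the start, and 4 TAAT matches, of which 3 lie in 1 unbroken run that begins 45 bases before the start. The Capn6 window held 1 CCAAT match, 135 bases before the start, and 0 TAAT matches. Among 32851 windows of the same length, 33.8% held CCAAT and 54.9% held TAAT, so these letters are common. Neither window held a TATA box (TATAAA, in 12.4% of windows), the TCF/LEF core CTTTGA (13.8%) or the MEF3 site TCAGGTTTC, which proteins of the Six2 family bind (0.387%). Of the 12 windows, 1 window of Six4 held TCAGGTTTC. The GC box (GGGCGG, 32.7% of windows) matched 2 times in the Six2 window and 3 times in that of Capn6. G and C made up 64.8% of the Six2 window and 53.6% of the Capn6 window, with a median of 52.4% over all windows.

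Tmem100 and Sall1 also rose, by far less. Tmem100, a small membrane protein known as a target of BMP receptor signalling in endothelium, had values of 5.92, 6.56 and 6.60 in controls and 7.22, 7.27 and 7.06 in mutants. The mutant arrays were all higher, and control replicate 1 was the lowest of the 6. Its log2 fold change was 0.82 with a 95% interval of 0.43 to 1.21 (limma, adjusted p = 0.00931), a 1.77-fold rise, and without control replicate 1 it was 0.60, the lowest of 12 alternative fits. Of 6 endothelial markers limma called 0, with 0 higher and 1 lower at an unadjusted p under 0.05. All 6 were dimmer than the array-wide median, where 4.34% of genes were called higher and 7.58% lower, so few calls could be looked for. Whether endothelial cells had a part in the rise of Tmem100 was not tested.

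Sall1, a zinc finger factor that the mesenchyme needs for bud outgrowth, had values of 6.99, 6.69 and 6.92 in controls and 7.19, 7.13 and 7.18 in mutants. The groups did not overlap, although the gap between control replicate 1 and the lowest mutant array was small. The log2 fold change was 0.30 with a 95% interval of 0.11 to 0.49 (limma, adjusted p = 0.0287). This call was lost without control replicate 2 (limma, adjusted p = 0.0518) and without mutant replicate 1 (0.0929), 2 (0.0633) or 3 (0.0830). The log2 fold change was 0.22 without control replicate 2, and 0.29 to 0.32 without 1 of the mutant arrays. Over all 12 alternative fits the adjusted p ran from 0.0113 to 0.0929, with the log2 fold change always above 0.2.

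Capn6 and Osr1 fell. Capn6, a member of the calpain family that lacks the catalytic cysteine, was at 11.98, 11.89 and 11.92 in controls and at 11.23, 11.32 and 11.15 in mutants. Every mutant array was lower than every control array by more than the spread within either group. Its log2 fold change was -0.70 with a 95% interval of -0.84 to -0.55 (limma, adjusted p = 0.000237), which left 61.7% of the control signal, and it passed in all 13 alternative fits. It was a bright gene, far above the array-wide median.

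Osr1, a zinc finger factor of the intermediate mesoderm and early nephron progenitors, had values of 8.35, 8.09 and 8.33 in controls and 7.96, 7.56 and 7.24 in mutants. All mutant arrays were lower, with the widest spread of any member among mutant arrays, an SD of 0.36. The log2 fold change was -0.67 with a 95% interval of -1.05 to -0.28 (limma, adjusted p = 0.0208), 62.9% of the control signal. The call was lost when control replicate 1 was left out (adjusted p = 0.0630), when mutant replicate 2 was (0.0695) and with array weights (0.0656), while the log2 fold change stayed between -0.85 and -0.50 in 13 alternative fits.

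Cited1 and Six4 lay at the edge of the threshold. Cited1, a transcriptional cofactor of the least differentiated cap cells, had values of 8.24, 8.08 and 8.29 in controls and 8.34, 8.58 and 8.48 in mutants. The groups did not overlap, and mutant replicate 1 was within 0.1 of control replicate 3. The log2 fold change was 0.27 with a 95% interval of 0.07 to 0.46 (limma, adjusted p = 0.0503). It passed in 6 of 13 alternative fits, with an adjusted p of 0.0322 after quantile normalization, 0.0264 with each array centred on its median, 0.0181 with dim genes left out, 0.0221 with an intensity trend, 0.0422 without control replicate 3 and 0.0391 without mutant replicate 1, and its highest adjusted p was 0.155. Cited1 is thus the member just outside the threshold, and Sall1 (adjusted p = 0.0287) the one just inside.

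Six4, a homeodomain factor that acts upstream of Gdnf in the mesenchyme, had values of 9.46, 9.50 and 9.75 in controls and 9.34, 9.39 and 9.37 in mutants. The mutant arrays were lower and close together, with control replicate 3 the highest of the 6. The log2 fold change was -0.21 with a 95% interval of -0.40 to -0.02 (limma, adjusted p = 0.102). It passed in 3 of 13 alternative fits, with an adjusted p of 0.0480 after quantile normalization, 0.0438 with dim genes left out and 0.0385 with an intensity trend. The direction was opposite to that of its family member Six2.

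Eya1, Wt1 and Gdnf did not pass in any fit, and their arrays overlapped between the groups. Eya1, the phosphatase and coactivator that partners Six2 and its relatives, had values of 6.31, 6.34 and 6.22 in controls and 6.10, 6.23 and 6.39 in mutants. Its log2 fold change of -0.05 had a 95% interval of -0.24 to 0.14 (limma, adjusted p = 0.675), and the sign turned to 0.02 after quantile normalization and without mutant replicate 1. Wt1, a zinc finger factor of the cap and of podocytes, had values of 7.26, 7.23 and 7.16 in controls and 7.11, 7.23 and 7.12 in mutants, and its interval ran from -0.20 to 0.08 (limma, adjusted p = 0.494). Gdnf, the ligand that the cap sends to the bud, had values of 6.69, 6.48 and 6.31 in controls and 6.35, 6.20 and 6.48 in mutants, and its interval ran from -0.41 to 0.10 (limma, adjusted p = 0.362). A rise of Eya1, Wt1 or Gdnf as large as that of Tmem100 lies outside these intervals. All 3 genes were dimmer than the array-wide median on average in each group.

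Between arrays of the same group the members deviated in different directions. In control replicate 2, where Six2 and Eya1 were highest of the 3 control arrays, Osr1, Cited1, Sall1 and Capn6 were lowest. In mutant replicate 2, 6 members were highest and 2 were lowest. The median deviation of the 10 members from their group means was between -0.02 and 0.04 on every array.

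Further genes of the cap mesenchyme, on a list that holds none of the 10 members, were mostly dim. Of its 18 genes, 17 were measured. In limma 0 were higher, 5 were lower and 12 did not pass, with 0 higher and 6 lower at an unadjusted p under 0.05. The 5 calls, all lower, are 29.4% of the list. Over all genes 25.8% were called, 11.8% higher and 13.9% lower. Among genes with a mean below the array-wide median 4.34% were called higher and 7.58% lower. Their median log2 fold change was -0.14, beside -0.05 over all genes, and only 4 of the 17 lay above the array-wide median. Robo2, a receptor for Slit proteins, had values of 8.83, 8.98 and 8.86 in controls and 8.47, 8.38 and 8.53 in mutants (log2 fold change -0.43; limma, adjusted p = 0.00263). Tafa5, a secreted protein, fell from 7.32 ± 0.20 to 6.68 ± 0.07 (SD, n = 3 each; limma, adjusted p = 0.00274). Rspo3, a secreted enhancer of Wnt signalling, had a log2 fold change of -0.32 (adjusted p = 0.0163), Dpf3 one of -0.32 (0.0168) and Spock2 one of -0.41 (0.0449). The summed signal of the list, as the log2 of its linear sum, was 11.45 to 11.52 in controls and 11.22 to 11.29 in mutants. The count of 5 was 2 without mutant replicate 1 and 3 without mutant replicate 3, and after quantile normalization Hoxa11 was called higher (log2 fold change 0.28, adjusted p = 0.0313). Some of these genes are also known in stroma, such as Cdh11 and Hoxd11.

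Paralogs of the members were measured for 15 of 16 genes, and in limma 0 were higher (0 at an unadjusted p under 0.05), 3 were lower and 12 did not pass. The share called was 20%, beside 25.8% over all genes, of which 11.8% were higher and 13.9% lower. Cited4, a cofactor related to Cited1, was at 9.72, 9.41 and 9.70 in controls and at 8.96, 9.02 and 8.80 in mutants, which is a difference of -0.69 (limma, adjusted p = 0.00183). Its groups did not overlap, and its direction was opposite to that of Cited1, which did not pass (limma, adjusted p = 0.0503). Capn5 fell by 0.31 on the log2 scale (adjusted p = 0.00729) and Sall4 by 0.25 (0.0181). The call of Sall4 was lost without any 1 of the 3 mutant arrays and after quantile normalization (adjusted p = 0.0713). Among relatives of Six2, the genes Six3, Six5 and Six6 had log2 fold changes of -0.04, -0.12 and -0.15, and among the Eya paralogs Eya2, Eya3 and Eya4 had -0.15, 0.08 and -0.15. The cofactors Dach1 and Dach2 had 0.06 and 0.26, Sall2 and Sall3 had -0.04 and -0.16, Osr2 had -0.09 and Cited2 had 0.01. None of these 12 passed, but without control replicate 3 Dach2 was higher (adjusted p = 0.0125) and Six6 lower (0.0476).

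Genes that carry signals between bud and cap changed in 10 of 12 cases, 2 higher and 8 lower in limma, with a median log2 fold change of -0.32. Over all genes 25.8% were called, and 39.6% of those above the array-wide median, where 10 of the 12 lay. Fgfr2, a receptor for fibroblast growth factors and 1 of the 8 lower genes (log2 fold change -0.18, adjusted p = 0.0413), lost its call after quantile normalization, with each array centred on its median, and without any single array other than control replicate 3. Wnt9b, the bud's inducing signal to the cap, had values of 9.69, 9.66 and 9.79 in controls and 11.05, 11.23 and 11.11 in mutants. It rose with no overlap, by a log2 fold change of 1.42 (limma, adjusted p = 2.23e-05). Wnt11, a signal of the bud tip, fell by 0.60 (adjusted p = 0.000522), and the receptors of GDNF, Ret and Gfra1, fell by 0.35 each (0.00258 and 0.00471). The cadherin pair Dchs1 and Fat4, a ligand and its receptor that act between stroma and cap, moved in opposite directions. Dchs1 went from 8.87, 8.89 and 9.06 to 9.82, 9.92 and 9.81 (log2 fold change 0.91; limma, adjusted p = 0.000121). Fat4 went from 7.94, 7.55 and 7.72 to 6.63, 6.90 and 6.67, with means of 7.73 ± 0.19 and 6.73 ± 0.14 (SD, n = 3 each; limma, adjusted p = 0.000553).

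Markers of other cell types that a kidney sort can hold were set beside the members. Over 6 lists, 43 genes were measured, of which 2 were higher, 8 lower and 33 not past the threshold in limma. Their median log2 fold change was -0.16. Over all genes 25.8% were called, with 39.6% of those above the array-wide median and 11.9% of those below it. Of 11 early nephron genes, 10 of them above the array-wide median, 1 was higher and 4 were lower. Among those 4 were Pax8 (log2 fold change -0.37, adjusted p = 0.00236), Lef1 (-0.70, 0.00316) and Wnt4 (-0.37, 0.00426), and Pax8 is also a gene of the bud. The summed log2 signal of the early nephron list was 12.94 to 13.04 in controls and 12.86 to 12.91 in mutants. As a linear sum it is weighted to the brightest genes, such as Pax8 and Jag1, with means of 11.17 and 10.81 in controls. It is thus no measure of the number of early nephron cells.

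Of 10 stromal genes limma called 0 (0 higher and 1 lower at an unadjusted p under 0.05), with summed signals of 9.95 to 10.15 and 9.99 to 10.09. The stromal genes with the smallest p were Tcf21 (log2 fold change -0.24, adjusted p = 0.0628) and Pdgfrb (0.16, 0.254). Foxd1, the defining stromal factor, had means of 6.15 ± 0.24 and 6.32 ± 0.06 (SD, n = 3 each), and did not pass. Of 5 podocyte genes 1, Synpo, was lower (log2 fold change -0.30, adjusted p = 0.0235), with summed signals of 8.81 to 8.96 and 8.90 to 8.95. The 4 measured blood genes included Ptprc, which was lower (-0.45, 0.0155), with summed signals of 7.65 to 7.97 and 7.62 to 7.73. Only 1 of the 10 stromal genes, and 0 of the podocyte and blood genes, lay above the array-wide median. Below that median 11.9% of all genes were called, so few calls could be looked for in these 3 lists.

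In the proximal tubule list of 7, the endocytic receptor Lrp2 was higher (log2 fold change 1.05, adjusted p = 0.000256), and Slc34a1 (-0.69, 0.0163) and Hnf4a (-0.31, 0.0486) were lower. The summed signals were 9.39 to 9.81 and 9.77 to 9.82. In the endothelial list the smallest p belonged to Emcn (-0.52, 0.0728) and Cdh5 (-0.37, 0.166), with summed signals of 9.08 to 9.61 and 8.92 to 9.31. Without control replicate 3, 5 of the 6 endothelial and 5 of the 7 proximal tubule genes were called lower. On an RMA scale no gene is at zero, and the lowest value of any gene on these 6 lists was 4.53. The part of other cell types in the changes of the members was not tested.

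**Figure D4:**
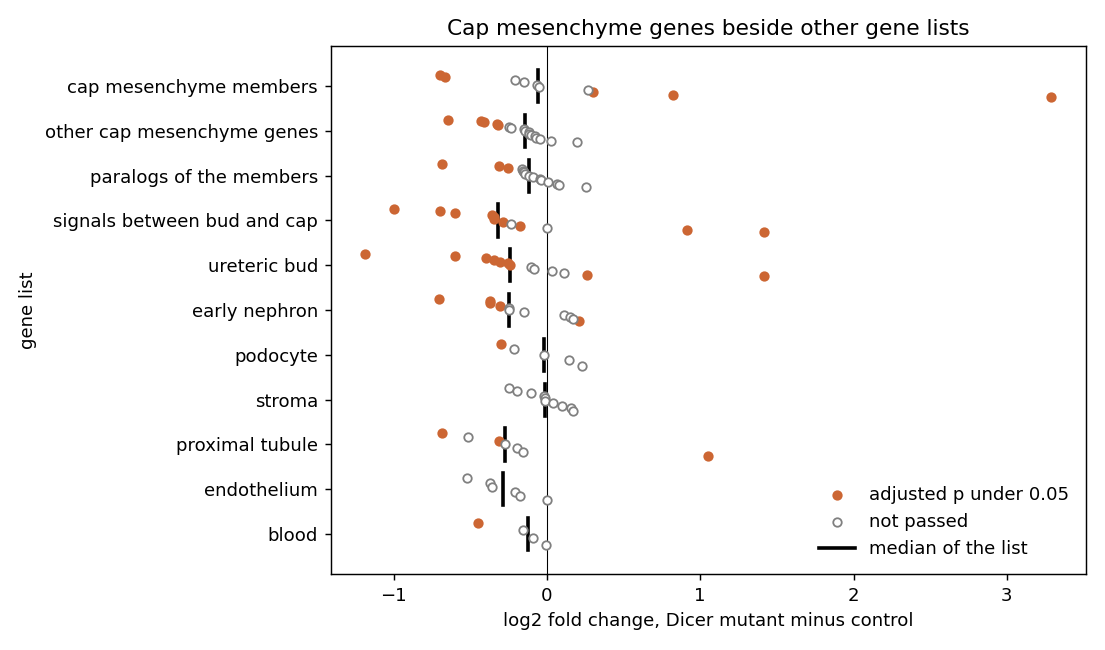
Log2 fold change (Dicer mutant minus control) of each measured gene in the cap mesenchyme set, 3 related gene lists and 7 cell type marker lists; filled points passed an adjusted p of 0.05 in limma, open points did not, and black bars are list medians. Six2 at 3.29 lies beyond every other plotted gene, the nearest being Wnt9b at 1.42, and the other cap mesenchyme genes have a median of -0.14.

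The 5 genes whose 6 values were most like those of Six2 came from outside the cap lists. Likeness was the root mean square distance between the 2 genes over the 6 arrays, each gene centred on its own mean, so it reflects the group difference that all arrays share. Tinag, a basement membrane protein, was nearest at 0.17 log2 units, followed by the LIM homeodomain gene Lhx8 (0.25), Prtg (0.26), Cthrc1 (0.38) and Spink12 (0.41). Tinag was at 5.81, 5.87 and 5.49 in controls and at 9.29, 9.35 and 9.34 in mutants. Counting Six2 itself as the first, the nearest member was Tmem100, in place 260 of 19296, and the next was Sall1, in place 1735. Osr1 and Capn6 were in places 19055 and 19048.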

How the data were processed

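The deposited table holds log2 signals, which the authors made with RMA and the affy package, per the submitters' processing notes. Software versions, filters and the build are not given in the sources. RMA brings the arrays to a common distribution, so a shift shared by most genes would be removed or reduced. In the deposited values a small difference remained, with every mutant median below every control median. The platform annotation gave 1 symbol to 20728 of 23309 probe sets and several to 1174, and did not list 1407, which stay unnamed. The probe set with the highest mean over 6 arrays stood for a gene, which left 19296 genes, and no dim gene was removed.

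Both groups entered 1 linear model with genotype as its term (limma 3.58.1, R 4.3.3, lmFit and eBayes), with two-sided p-values adjusted by Benjamini-Hochberg over all genes. When tested on simulated data for 19296 genes, the model called 66% of 50 genes changed by 0.5 log2 units, 94% at 1, 100% at 2 and at 3, and 10 unchanged genes. That simulation raised 200 genes and lowered none, with independent noise and no shift between arrays. In the data 25.8% of genes were called, in both directions, so these rates need not hold there. The number of arrays limits the precision. No 2 arrays shared more than 22 identical values, and no batch or date was given.

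The members, the lists and the rule for named genes were chosen with earlier results of these data known. The rule took every member, every paralog, Dicer1, up to 3 called genes of each other list by smallest p (2 where none passed) and the 5 genes nearest to Six2. Dpf3, Spock2, Ret, Gfra1, Fgfr2, Fat4, Hoxa11, Hoxd11, Cdh11, Foxd1 and the neighbours of Six2 were named after their values were seen. The same holds for Calb1, Jag1, Podxl, Ptpro and Tfcp2l1, named for calls that moved between fits. Lists came from general knowledge and share Fgf20, Ret, Wnt9b and Wnt11. Some genes of the lists are not reported here. Promoters are RefSeq's, and figures were drawn with matplotlib 3.10.9.

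The replicate numbers did not pair the arrays: deviations from the group means of same-numbered arrays correlated at -0.19, -0.10 and -0.22 across genes.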

Additional observations from a re-analysis of the deposited data

How the results depend on the processing

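The changes of Six2, Capn6, Tmem100 and Dicer1 passed in every alternative fit that tested them. For Six2 the fit with dim genes left out is no independent check, because only its mutant mean kept it in. With the replicate number as a block, which the data do not bear out as a pairing, 1725 genes were higher and 1878 lower, and the members had counts of 3 higher and 2 lower. Under that block Dpf3, Spock2, Sall4, Fgfr2, Calb1 and Jag1 were no longer called. No array correlated best with its own number. The count of lower members was 1 with array weights, 1 at an adjusted p of 0.01, 1 to 2 when single arrays were left out, and 3 after quantile normalization, with dim genes left out and with the intensity trend. The count of higher members was 2 to 4 in that case. At an adjusted p of 0.01, 1367 genes were higher and 1423 lower, and with a minimum change of 1.5-fold 553 and 408. Leaving out single arrays gave 1635 to 2157 higher and 1764 to 2973 lower genes. The log2 fold change of Eya1 ran from -0.127 to 0.017 when single arrays were left out, turning sign without mutant replicate 1, and was 0.023 after quantile normalization. The cause of these shifts was not tested. Of 125 values of the 10 members over all alternative fits, 109 kept their side of the threshold, 2 of them with a changed sign, 7 lost a call and 9 gained one. With dim genes left out, Eya1, Sall1, Wt1, Gdnf and Tmem100 were not tested.

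Small list counts also moved. Jag1, the only early nephron gene called higher, was lost without any single array other than control replicate 1. Synpo was lost without control replicate 1, mutant replicate 1 or mutant replicate 2, and Ptprc without mutant replicate 1 or 3. Podxl was called higher without control replicate 2 and Ptpro lower without control replicate 3. Tfcp2l1 was lost without mutant replicate 1 or 2. In the proximal tubule list the count of lower genes was 0 to 5 when single arrays were left out. Slc34a1 was lost without control replicate 2, mutant replicate 1 or mutant replicate 2. Hnf4a was lost without any single array other than control replicate 3, after quantile normalization and with each array centred on its median. The bud marker Calb1 was lost without any single array other than control replicate 1, and with each array centred on its median. No detection call was given, so how far a dim gene such as Six2 in controls lay above background is unknown.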
